A study of Mus musculus with 6 samples.

Results

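The genes described here are 8 transcripts of the early inflammatory response of glia, measured in GFP-positive cells sorted from the mouse hippocampus. They are the chemokine genes Ccl3, Ccl4 and Ccl2, the cytokine genes Il1a, Il1b and Tnf, and Nfkbia and Nfkbiz, which encode inhibitor-of-NF-κB proteins. They were taken by symbol from the deposited table, where all 8 of 8 had values among 20323 genes with values. They were chosen by their neuregulin against vehicle differences in these same libraries, so those differences are given as a description and are not read as evidence for the genes as a group. All 6 mice carried Nestin-CreERT2 and a Rosa26-mGFP reporter, were fed cuprizone, a copper chelator that strips myelin, for 10 weeks, and recovered for 4 weeks. The 3 vehicle mice were given saline with 0.1% bovine serum albumin. The 3 treated mice received neuregulin 1 beta 1 (Nrg-1β1), a ligand of ErbB receptor kinases, at 60 µg per kg per day by the series description, where the sample labels write grams. The labels give no age and no mouse without cuprizone. Each library came from 1 animal, and the cells were enriched with magnetic beads against GFP, which Cre induction under the Nestin promoter switches on in progenitors and in the cells they give rise to.

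NF-κB is held in the cytoplasm by inhibitor proteins until a stimulus such as a bacterial product, interleukin 1 or tumour necrosis factor triggers their destruction, after which it enters the nucleus and switches on chemokine and cytokine genes within minutes to hours. The same factor switches on genes for its own inhibitors, Nfkbia first among them, which ends the response. In the brain microglia are the main source of Ccl3, Ccl4, Il1a, Il1b and Tnf, and enzymatic dissociation of brain tissue is itself known to induce several of these transcripts in microglia, with Ccl3, Ccl4 and Nfkbiz among the well known ones.

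Depth, sex-linked transcripts and cell makeup set the limits of the comparison. Vehicle libraries 1 and 3 held 72953034 and 47076006 recovered reads, while vehicle library 2 held 1075813 and the Nrg-1β1 libraries 567073, 662909 and 1327003, so vehicle library 2 is the vehicle animal of like depth. A read was worth 0.0605 normalized counts in the deep libraries and 3.04 to 5.17 in the others. Reads of Xist, the RNA of the inactive X chromosome, numbered 3255, 216 and 1045 in the vehicle animals against 2, 3 and 1 under Nrg-1β1. Those of the Y-linked Ddx3y numbered 82, 1 and 1994 against 29, 22 and 15, which on the depth-scaled log2 values is 3.16, 2.83 and 6.96 against 7.27, 6.86 and 5.63. Vehicle libraries 1 and 2 thus held mainly the X-linked transcript, vehicle library 3 both, and the Nrg-1β1 libraries mainly the Y-linked one. The labels give no sex, and this difference cannot be told apart from the treatment. Vehicle library 3 was like the treated libraries in Ddx3y but not in Xist. Its Xist log2 value was 6.07, with 7.65 and 9.39 in vehicle libraries 1 and 2 and 3.84, 4.27 and 2.82 under Nrg-1β1. Why vehicle library 3, given as 1 animal, held both transcripts was not tested. The labelled cell type is neural progenitor cells, and the summed level of 16 progenitor and neuroblast markers was 1102 to 1834 normalized counts in vehicle and 2092 to 2498 in Nrg-1β1. Transcripts of other cells were more abundant, with 10 oligodendrocyte lineage markers at 76929 to 183042 in vehicle and 102145 to 120298 in Nrg-1β1. In the same order, 10 astrocyte markers stood at 26912 to 39091 and 48810 to 49518. The 10 neuronal markers stood at 14009 to 24258 and 17718 to 26580, and 21 microglial markers at 10361 to 17672 and 5016 to 6206. In bulk RNA, fewer cells of a type cannot be told apart from less RNA per cell.

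The 250 bases before the RefSeq start sites show how the promoters of the least and most different members compare. Windows were found for 5 of the 8 genes (GRCm38.p6), and Ccl3, Il1a and Nfkbia are printed because they hold different sets of the 3 motifs searched: the κB consensus of NF-κB, the AP-1 element TGANTCA and the TATA element TATAAA, each on both strands, with matches in capitals. Ccl3 lies at chr11:83649379-83649628, Il1a at chr2:129309973-129310222 and Nfkbia at chr12:55492648-55492897, all on the minus strand, and each is written 5′ to 3′ along its gene.
Ccl3: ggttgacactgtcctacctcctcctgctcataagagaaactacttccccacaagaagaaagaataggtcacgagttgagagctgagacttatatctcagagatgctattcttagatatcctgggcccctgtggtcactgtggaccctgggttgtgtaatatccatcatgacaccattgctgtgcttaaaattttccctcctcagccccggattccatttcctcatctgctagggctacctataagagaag
Il1a: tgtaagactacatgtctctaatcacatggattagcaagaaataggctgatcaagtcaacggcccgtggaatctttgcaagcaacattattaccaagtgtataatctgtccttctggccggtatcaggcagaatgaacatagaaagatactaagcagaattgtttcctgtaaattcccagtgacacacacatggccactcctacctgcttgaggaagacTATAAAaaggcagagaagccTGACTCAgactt
Nfkbia: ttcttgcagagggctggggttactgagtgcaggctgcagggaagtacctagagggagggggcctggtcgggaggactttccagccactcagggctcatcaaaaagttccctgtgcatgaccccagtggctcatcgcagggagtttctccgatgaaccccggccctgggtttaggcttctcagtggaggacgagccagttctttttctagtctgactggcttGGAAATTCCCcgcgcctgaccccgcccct
Nfkbia held a κB match, GGAAATTCCC, which reads as the consensus on the opposite strand and begins 29 bases before the start site. Such a match was present in 7.25% of 32851 RefSeq windows of that length. Il1a held TATAAA, found in 12.4% of windows, and TGACTCA, a form of TGANTCA, which 6.75% of windows held, beginning 32 and 12 bases before its start, and Il1b and Tnf held TATAAA at 31 and 29 bases. None of these exact letters was found in the Ccl3 window.

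The CC chemokine genes Ccl3 and Ccl4, which encode secreted proteins that draw monocytes and T cells, had the lowest Nrg-1β1 values against vehicle of the 8. Ccl3 stood at 129.6, 89.5 and 102.5 normalized counts in vehicle libraries 1 to 3 (2140, 29 and 1695 reads) and at 5.17, 15.3 and 12.2 in Nrg-1β1 libraries 1 to 3 (1, 3 and 4 reads). All 3 vehicle animals were well above all 3 treated animals, including vehicle library 2 with its low depth. On the log2(normalized count + 4) scale of the deposited values, the Ccl3 mean was 6.78 ± 0.26 for vehicle against 3.83 ± 0.56 for Nrg-1β1 (SD over 3 animals each), which differ by -2.95 ± 0.43 (SE). Ccl4 stood at 72.0, 37.0 and 54.1 normalized counts in vehicle (1190, 12 and 894 reads) and at 0, 5.11 and 15.2 in Nrg-1β1 (0, 1 and 5 reads). The highest treated animal remained below the lowest vehicle animal, and the animal with 0 reads has an upper limit of 15.5 normalized counts (3 reads). The log2 difference of Ccl4 was -2.67 ± 0.57 (SE), from 5.82 ± 0.45 to 3.15 ± 1.13 (SD, n = 3 each).

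Ccl2, which encodes the ligand of Ccr2 that recruits monocytes, was scarce in every library. It had 19.4, 9.26 and 18.9 normalized counts in vehicle (321, 3 and 313 reads) and 0, 5.11 and 3.04 in Nrg-1β1 (0, 1 and 1 reads). The groups did not overlap, but the lowest vehicle value rests on 3 reads and all treated values on 2 reads together. Its log2 difference was -1.60 ± 0.55 (SE), or -2.47 with 1 and -0.76 with 16 added in place of 4.

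**Figure D1:**
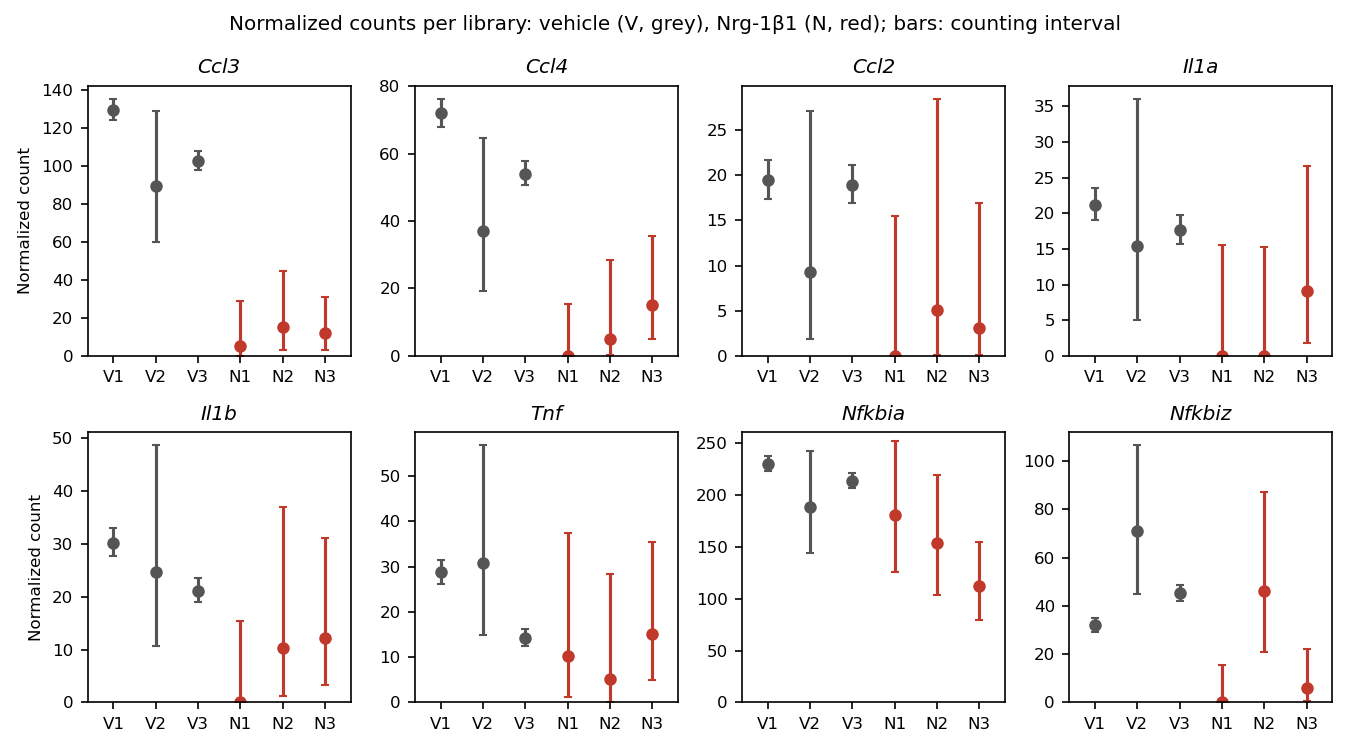
Normalized counts of the 8 genes (vertical axes, linear from 0, a scale per gene) in vehicle libraries V1 to V3 (grey) and Nrg-1β1 libraries N1 to N3 (red). Bars are 95% exact Poisson counting intervals, or the limit of 3 reads where a library had 0, and leave out the spread between animals. Ccl3 and Ccl4 are lower in all 3 Nrg-1β1 libraries, while the shallow libraries have wide bars for Ccl2, Il1a, Il1b and Tnf.

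The 2 interleukin 1 genes encode the alpha and beta ligands of the receptor Il1r1, the first acting mainly as an alarm signal of damaged cells and the second released after cleavage by caspase 1. Il1a had 21.2, 15.4 and 17.6 normalized counts in vehicle (350, 5 and 291 reads) and 0, 0 and 9.12 in Nrg-1β1 (0, 0 and 3 reads). Both treated libraries with 0 reads allow up to 15.5 and 15.3 normalized counts, close to the 15.4 of vehicle library 2. The log2 difference of Il1a was -1.88 ± 0.58 (SE), and it hung on the number added before the log: -3.13 with 1 and -0.87 with 16 in place of 4. Il1b had 30.3, 24.7 and 21.2 normalized counts in vehicle (500, 8 and 350 reads) and 0, 10.2 and 12.2 in Nrg-1β1 (0, 2 and 4 reads). Its groups did not overlap either, and the log2 difference was -1.58 ± 0.59 (SE), or -0.94 without Nrg-1β1 library 1. The spread between treated animals, 1.11 (SD) against 0.22 in vehicle on the log2 scale, came with the step from 0 to 4 reads.

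Tnf, which encodes the cytokine that signals through Tnfrsf1a and Tnfrsf1b, had 28.7, 30.9 and 14.2 normalized counts in vehicle (474, 10 and 235 reads) and 10.3, 5.11 and 15.2 in Nrg-1β1 (2, 1 and 5 reads). The groups overlapped, because Nrg-1β1 library 3 lay above vehicle library 3. The log2 difference was -1.02 ± 0.53 (SE), and -0.42 when vehicle library 3 alone stood for its group.

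Nfkbia encodes IκBα, the inhibitor that NF-κB itself induces, and was the best measured member. Nfkbia had 230.1, 188.3 and 213.5 normalized counts in vehicle (3801, 61 and 3531 reads) and 180.8, 153.2 and 112.4 in Nrg-1β1 (35, 30 and 37 reads). The groups did not overlap, yet the step from the highest treated animal to the lowest vehicle animal was small against the spread within each group. Its log2 difference, -0.51 ± 0.29 (SE), was the nearest to 0 of the 8. Nfkbiz encodes IκBζ, a nuclear protein of the same family that assists NF-κB at a subset of its targets. Nfkbiz had 32.0, 71.0 and 45.3 normalized counts in vehicle (528, 23 and 749 reads) and 0, 46.0 and 6.08 in Nrg-1β1 (0, 9 and 2 reads). Nrg-1β1 library 2 lay within the vehicle range while the other treated animals lay below it, and the log2 difference was -2.01 ± 0.69 (SE). It was -1.19 without Nrg-1β1 library 1 and -3.01 without Nrg-1β1 library 2.

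All 8 differences were below 0, with a median of -1.74, where the median over all genes was 0.03 and 47.8% of genes had a difference below 0. In 6 of the 8 every Nrg-1β1 library lay below every vehicle library, against 10.4% of all genes, and in 0 of the 8 every Nrg-1β1 library lay above, against 7.37%. In 2, Tnf and Nfkbiz, the groups overlapped. At an adjusted p of 0.05 (limma over all genes), 2 of the 8 were lower, Ccl3 (adjusted p = 0.00324) and Ccl4 (adjusted p = 0.0286), against 0.625% of genes called lower, and 0 of the 8 were higher, against 0.438%. These counts restate the contrast by which the genes were picked. The pass of Ccl3 held without vehicle library 1 (adjusted p = 0.0396, limma) and was lost without any other library (0.102 to 0.289), and that of Ccl4 was lost without any library (0.102 to 0.358). Limma-voom on the recovered reads gave Ccl3 and Ccl4 adjusted p-values of 0.0618 and 0.0645. Ccl4 also missed the threshold with quantile normalization (adjusted p = 0.093, limma), a pseudocount of 1 (0.0709) and no intensity trend (0.078), and passed in 4 of 16 alternatives, where Ccl3 passed in 9 of 17.

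**Figure D2:**
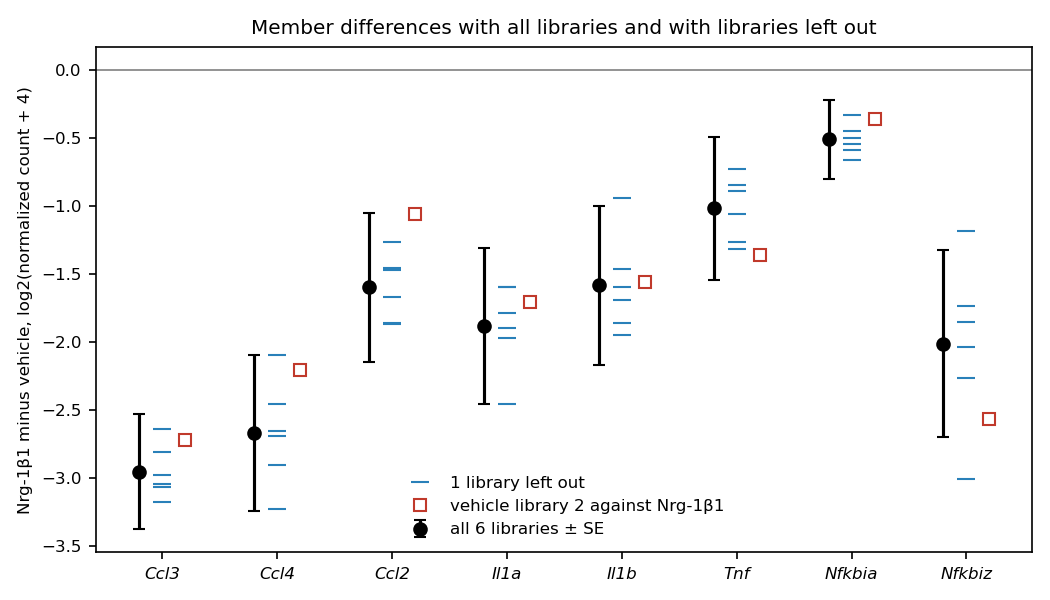
Nrg-1β1 minus vehicle for each gene (vertical axis, log2 of normalized count + 4): all 6 libraries with SE (black), each library left out in turn (blue) and vehicle library 2 alone against the 3 Nrg-1β1 libraries (open red squares). No value crosses 0. When a library is left out, Ccl3 ranges from -3.18 to -2.64 and Nfkbiz, the widest, from -3.01 to -1.19.

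Set against vehicle library 2 alone, whose depth is like that of the treated libraries, all 8 genes were again lower in Nrg-1β1, though this rests on 1 vehicle animal. Ccl3 had 29 reads there and 8 reads over the 3 Nrg-1β1 libraries, a level 8.04 times higher in the vehicle library (95% exact interval 3.59 to 20.4, counting error only). The ratio was 4.44 for Ccl4 (1.54 to 14.4) and 4.64 for Nfkbiz (2.17 to 10.5). For Nfkbiz vehicle library 2 was the highest vehicle library, at 71.0 normalized counts against 32.0 and 45.3. Its treated reads were 0, 9 and 2, and Nrg-1β1 library 2, at 46.0, lay above vehicle libraries 1 and 3. The ratio was 2.77 for Tnf (0.985 to 8.08) and 2.96 for Il1b (0.900 to 10.3). It was 3.70 for Il1a (0.719 to 23.8) and 3.33 for Ccl2 (0.381 to 39.8). These 4 intervals hold both no difference and a vehicle level several times higher. Vehicle library 2 was among the libraries by which the 8 genes were chosen, so the intervals describe counting error and test nothing. Each pools the reads of the 3 treated animals and leaves out the spread between them. The interval for Nfkbia, 1.33 (0.950 to 1.84), holds both no difference and a vehicle level up to 1.84 times higher. Leaving out both vehicle libraries low in Y-linked reads, 1 and 2, gave differences of -2.91 for Ccl3 and -2.71 for Ccl4, neither past the threshold (adjusted p = 0.354 and 0.609, limma). The other 6 ranged from -1.97 for Nfkbiz to -0.42 for Tnf, whose difference over all libraries was -1.02.

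Per kilobase of exon, the vehicle cells held Ccl3 and Nfkbia at the highest levels of the 8. Ccl3 stood at 139.9 ± 26.7 normalized counts per kilobase and Nfkbia at 130.8 ± 13.1 (SD, n = 3 each), a step within the spread between animals, followed by Ccl4 at 82.4 ± 26.5. The other 5 lay far below these: Tnf at 15.0 ± 5.53, Ccl2 at 13.9 ± 5.04, Il1b at 13.3 ± 2.41, Nfkbiz at 9.85 ± 3.95 and Il1a at 9.16 ± 1.47, with each neighbour in that order within the spread. In the Nrg-1β1 cells Nfkbia stood alone at 92.4 ± 21.4 normalized counts per kilobase. Ccl3 followed at 14.2 ± 6.79, Ccl4 at 10.3 ± 11.7 and Tnf at 6.23 ± 3.08, and Il1b, Nfkbiz, Ccl2 and Il1a lay between 1.54 and 3.91.

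The remaining genes of the pathway, 180 distinct genes in 8 lists, of which 167 had a value, rarely passed the test. Of the 167, 91 had fewer than 10 reads over the Nrg-1β1 libraries, so not passing does not show that a gene was unchanged. Over the 167 genes 5 were lower and 1 was higher at an adjusted p of 0.05 (limma), 3.59% against 1.06% of all genes called. The median difference was -0.31 on the log2 scale, with 112 of 167 below 0. With each library centred on its median the balance was 4 lower and 4 higher, with a median of -0.10 and 90 of 167 below 0. Among 24 other chemokine ligands Cxcl12, a chemokine of vessels and stroma, fell from a log2 mean of 7.22 ± 1.15 (SD) to 4.61 ± 0.32 (limma adjusted p = 0.00975). Cxcl14, a chemokine of interneurons and progenitor cells, rose from 9.23 ± 0.47 (SD) to 10.85 ± 0.55 (limma adjusted p = 0.0246). Its values were 9.38, 9.61 and 8.70 in vehicle and 11.13, 11.21 and 10.23 in Nrg-1β1, so it moved opposite to Ccl3 and Ccl4. The other 22 ligands did not pass, and Ccl5, Ccl19 and Ccl24 had 0 reads in all Nrg-1β1 libraries against 0, 1 and 1 in vehicle library 2. Of 20 chemokine receptors only Cx3cr1, the fractalkine receptor of microglia, fell (-1.21, adjusted p = 0.0448, limma), and it also stands in the microglial list below.

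No cytokine outside the 8 and no receptor or adaptor of the interleukin 1 and TNF pathways passed. Of these, 14 of 23 cytokines and 12 of 27 receptors and adaptors had fewer than 10 reads over the Nrg-1β1 libraries. Among 23 other cytokines the smallest p-values were those of Osm, which encodes oncostatin M and had 1 read in the Nrg-1β1 libraries (difference -2.10, adjusted p = 0.0566, limma), and Tgfb1 (difference -1.27, adjusted p = 0.0748, limma). Of 27 receptors and adaptors, Irak1, a kinase downstream of interleukin 1 receptors, was at 8.02 ± 0.34 and 9.16 ± 0.24 (SD, n = 3 each, adjusted p = 0.0567, limma). Traf1, an adaptor that NF-κB induces, had 0 reads in Nrg-1β1 and 1 in vehicle library 2 (adjusted p = 0.0923, limma). None of 22 pattern recognition and inflammasome genes passed, although 21 had a difference below 0. Their median was -0.75, with the endosomal receptor gene Tlr7 at -1.84 (adjusted p = 0.071, limma) and the lipopolysaccharide co-receptor gene Cd14 at -1.22 (adjusted p = 0.126, limma).

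The NF-κB subunits and their kinases also did not pass. Of 12 genes 7 had a difference below 0, and the median was -0.49. Rela, the main activating subunit, differed by -0.64 ± 0.34 (SE, adjusted p = 0.443, limma), and Ikbkg, the regulatory subunit of the kinase complex, by 0.62 ± 0.33 (SE, adjusted p = 0.456, limma). Among 16 further feedback inhibitors 2 fell, against 0.625% of all genes called lower. Zfp36, which encodes the protein tristetraprolin that destabilises cytokine transcripts, went from 9.11 ± 0.38 (SD) to 6.22 ± 0.78 (limma adjusted p = 0.000731). Nfkbid, a nuclear relative of Nfkbiz, differed by -2.53 and had 2 reads in Nrg-1β1 (adjusted p = 0.0346, limma). Among 26 further NF-κB target genes the stress response gene Ier3 fell (-3.24, adjusted p = 0.00888, limma), with 3 reads in Nrg-1β1. Zfp36 alone of the pathway genes passed without vehicle library 1, and 0 passed without any other library or with vehicle library 2 or 3 as the only vehicle library, where 22 to 44 lay under an unadjusted p of 0.05 (limma).

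**Figure D3:**
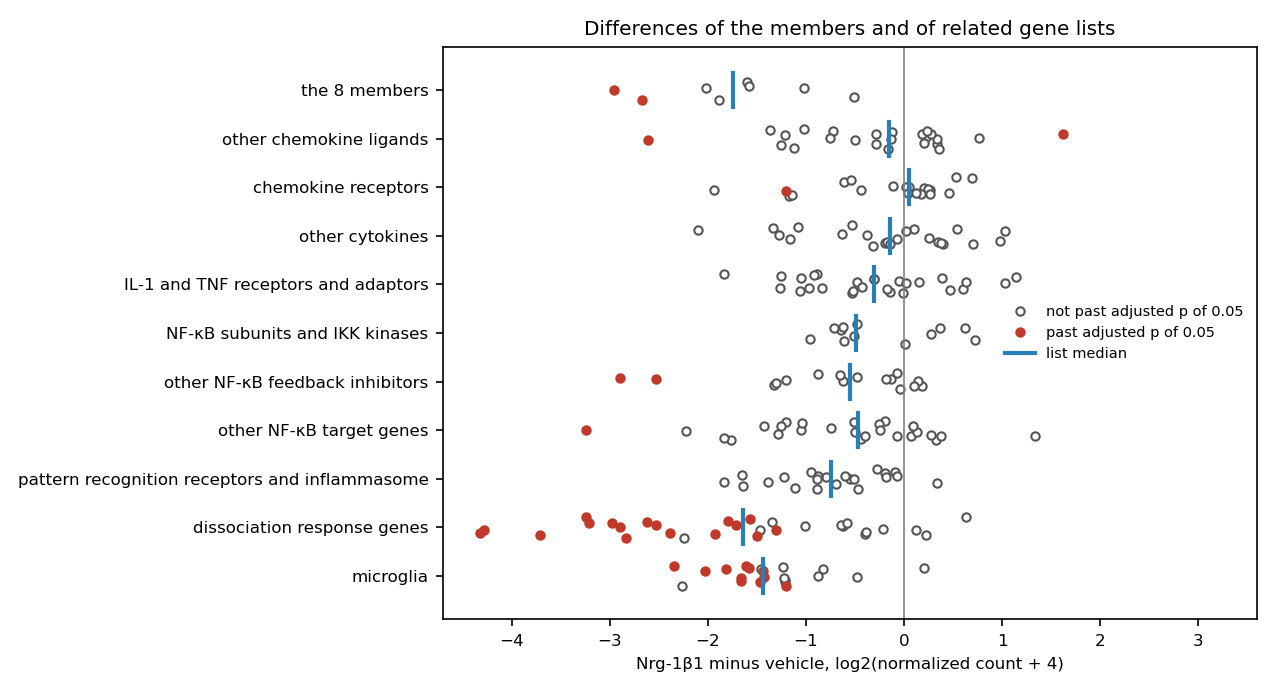
Differences per gene between Nrg-1β1 and vehicle (horizontal axis, log2 scale, negative where Nrg-1β1 is lower) in the 8 members, the 8 pathway lists and the dissociation response and microglial lists; filled points pass an adjusted p of 0.05 and blue bars are medians. The pathway medians lie between -0.75 and 0.05. The medians of the 8 members (-1.74), the dissociation response genes (-1.64) and the microglial genes (-1.44) lie lower. Of the 167 pathway genes 91 had fewer than 10 reads over the Nrg-1β1 libraries. So had 6 of the 8 members, 5 of 30 dissociation response genes and 1 of 21 microglial genes.

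Microglial genes moved with the 8. Of 21 markers 11 fell, 0 rose and 10 did not pass (median -1.44), against 1.06% of all genes called. For 19 of them every Nrg-1β1 library lay below every vehicle library, against 10.4% of all genes. P2ry12, a purinergic receptor, differed by -2.03 (adjusted p = 0.00477, limma), Selplg by -2.35 (adjusted p = 0.00693), Siglech by -1.66 (adjusted p = 0.0124) and Fcrls by -1.61 (adjusted p = 0.0179). Without vehicle library 1 only P2ry12 passed, 0 passed without any other library, and 0 passed with limma-voom on the recovered reads, while the median lay between -1.54 and -1.17 over the fits that leave out a library. No microglial marker had 0 reads over the Nrg-1β1 libraries. To set the 8 genes against microglial RNA, the mean log2 value of the 21 markers was subtracted from each in every library. Ccl3 then stood at -2.10, -2.22 and -1.66 in vehicle and at -3.86, -3.29 and -3.58 in Nrg-1β1, a difference of -1.58 with no overlap. Ccl4 differed by -1.30 with overlap. Il1b (-0.21), Ccl2 (-0.22), Il1a (-0.51), Nfkbiz (-0.64) and Tnf (0.36) all overlapped between groups, and Nfkbia, which most cells express, lay 0.86 higher in Nrg-1β1, also with overlap. A library with 0 reads takes its value here from the added 4, and values of a few reads lean on it as well, so these figures are rough for all but Nfkbia, whose reads were 30 or more in every library. The part of microglial RNA in the lower Ccl3 and Ccl4 values was not tested.

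Markers of other immune cells were scarce. Of 10 border-associated macrophage markers 0 passed (median -0.86), with a summed level of 173.4 to 342.2 normalized counts in vehicle and 63.8 to 132.8 in Nrg-1β1, and Ms4a7 had 0 reads in Nrg-1β1 and 1 in vehicle library 2. Stab1 and Mrc1 differed by -1.40 and -2.05 without passing. Of 14 monocyte and neutrophil markers 9 had values, 117.9 to 155.2 summed in vehicle and 20.7 to 85.1 in Nrg-1β1. The neutrophil genes S100a8, S100a9, Ngp and Ltf and the macrophage gene Chil3 had 0 reads in Nrg-1β1, as they had in vehicle library 2, the vehicle animal of like depth. Among the others Ly6c2 (-1.84) and Csf3r (-1.25) did not pass. The 12 lymphocyte markers with values summed to 18.4 to 27.8 and 21.3 to 40.9, with Ms4a1 at 3 reads in Nrg-1β1. Vascular genes were low with the 8 as well: 8 of 12 endothelial markers fell (median -2.57), against 0.625% of all genes called lower, among them Ly6c1 (-3.59), Slco1a4 (-3.62), Cldn5 (-3.47) and Abcb1a (-3.08), and their sum was 666.8 to 3257 in vehicle and 129.1 to 153.2 in Nrg-1β1. As for every gene of the table, these calls were lost without vehicle library 2 or any 1 of the Nrg-1β1 libraries. Of the 12 endothelial markers, 10 had fewer than 10 reads over the Nrg-1β1 libraries. Ly6c1 and Slco1a4 had 6 each, Abcb1a 8 and Cldn5 22. Vtn (-3.89) fell among 11 pericyte, muscle and fibroblast markers, with 3 reads in Nrg-1β1. Kcnj8 of that list had 0 reads in Nrg-1β1 and in vehicle library 2. Astrocyte markers lay the other way: all 10 had differences above 0 (median 0.71) and for 7 every Nrg-1β1 library lay above every vehicle library, against 7.37% of all genes, although 0 passed the threshold (Sox9 1.06, Aldh1l1 0.87). Of 10 oligodendrocyte lineage markers 0 passed (median -0.26, with Olig1 at 1.11 and Mag at -0.89). The groups were apart upward in 2 and downward in 2, against 7.37% and 10.4% of all genes. Of 10 neuronal markers 0 passed (median 0.25, with Slc17a7 at 1.16 and Nrgn at 1.11). The groups were apart upward in 3, against 7.37% of all genes. Sox1 rose (1.96) among the progenitor markers. The part of these cell types in the differences of the 8 genes was not tested.

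Genes known to be induced while tissue is dissociated were lower in the same libraries. Of 30 genes, none of them among the 8 although Zfp36, Ier3 and Nfkbid also stand in the lists above, 17 fell, 0 rose and 13 did not pass (median -1.64), against 1.06% of all genes called. Among them the inducible heat shock gene Hspa1a differed by -3.71 (adjusted p = 8.74e-05, limma) and its near-identical copy Hspa1b by -4.29 (adjusted p = 0.000134), a pair whose reads cannot be surely assigned. Klf4, a transcription factor gene, differed by -4.32 (adjusted p = 0.00324, limma), with 7 reads in Nrg-1β1. Its log2 values there were 2, 2 and 4.66, where 2 stands for 0 reads, so the size of its difference leans on the added 4. The mean of the centred log2 values of the list was 0.85, 0.72 and 1.08 in vehicle and -1.29, -0.72 and -0.62 in Nrg-1β1. That of the 8 genes was 1.05, 0.80 and 0.81 and -1.59, -0.58 and -0.50, so in both lists Nrg-1β1 library 1, which had 0 reads for 5 of the 8 genes, was the lowest. This low point was not particular to the 2 lists. The microglial list stood at -1.04, -0.53 and -0.50 in Nrg-1β1, and Nrg-1β1 library 1 had the fewest reads of all libraries (567073). The count of dissociation response genes that fell was 10 without vehicle library 1 and 2, Hspa1a and Hspa1b, without vehicle library 3. It was 1, Zfp36, with limma-voom on the recovered reads, and 0 without any other library, while the list median lay between -1.88 and -1.32 over the fits that leave out a library.

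Set against the mean of the dissociation response genes in each library, 4 of the 8 differences lay below 0 and the median was 0.02. Ccl3 still stood lower in all 3 Nrg-1β1 libraries, at -0.65, -1.04 and -1.21 in vehicle and -2.38, -1.87 and -2.23 in Nrg-1β1, a difference of -1.19. Nfkbia stood higher in all 3, at 0.16, 0.00 and -0.18 against 1.95, 1.15 and 0.62, a difference of 1.25. The remaining 6 overlapped between the groups, from -0.91 for Ccl4 to 0.74 for Tnf. The part of cell activation during dissociation in the differences was not tested, and the labels give no handling time or enzyme.

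**Figure D4:**
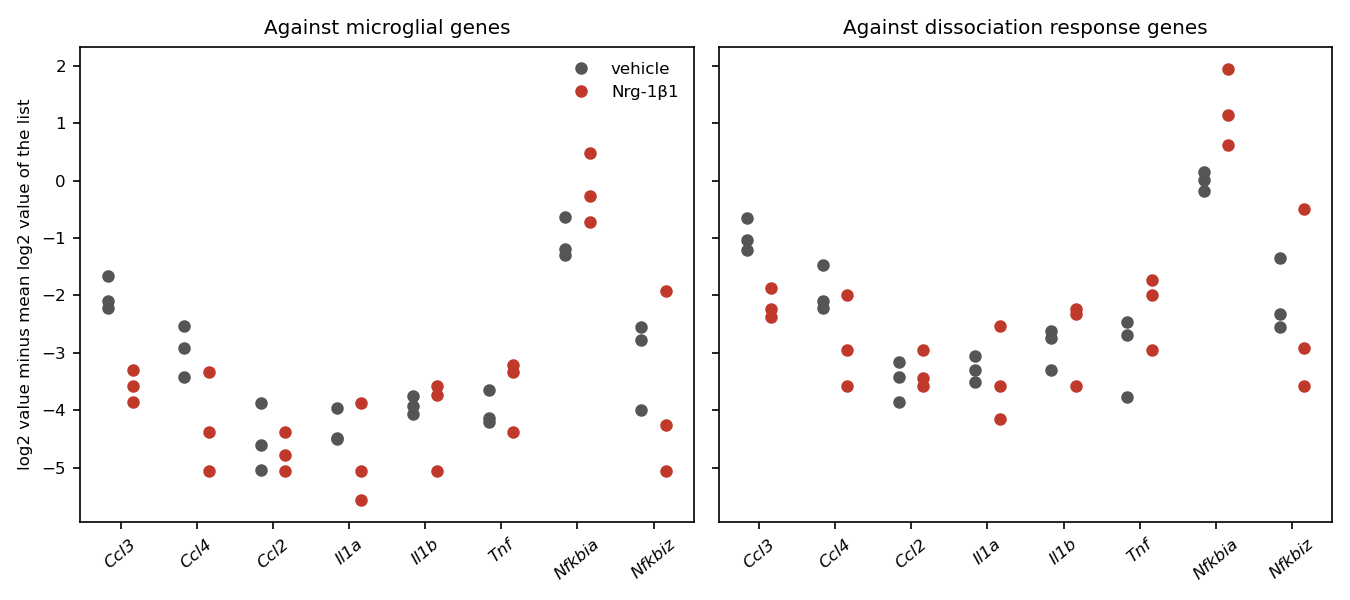
Log2 value of each of the 8 genes minus the mean log2 value of 21 microglial genes (left) or 30 dissociation response genes (right), per library, in vehicle (grey) and Nrg-1β1 (red). Ccl3 separates the groups in both panels, Nfkbia lies higher in Nrg-1β1 in the right panel, and the other genes overlap.

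The non-member genes whose log2 values followed the mean of the 8 most closely over the 6 libraries, among 10159 at or above the median level, were Ctsc (Pearson r = 0.998), Inpp5d (0.993), Ccng2 (0.990), Wdr44 (0.990) and Retreg1 (0.989). Ctsc, which encodes the lysosomal protease cathepsin C, had values of 7.14, 6.92 and 6.85 in vehicle and 4.62, 5.64 and 5.80 in Nrg-1β1. Inpp5d encodes SHIP1, a lipid phosphatase of blood-derived cells and microglia, with values of 7.44, 7.52 and 7.35 against 5.33, 6.24 and 6.38. With 6 points in 2 groups, which also differ in depth, such likeness describes these libraries only.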

How the data were processed

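Per the labels' protocols, lysates of sorted cells were kept in TRIzol, RNA was column purified, and libraries were built with an NEB kit. Trimmomatic and Bowtie2 were used, per the submitters' processing notes. Versions, build, counter, strand setting and normalization were not given in the sources used here. The values the authors deposited are on a log2 scale for 20323 of 27102 genes, and 6779 genes are blank in every library. After unlogging and subtracting 4, 100% of values were whole multiples of 1 step per library (within 0.02 of a read), so they were read as log2(normalized count + 4), and reads and depths (567073 to 72953034) were recovered. This reading comes from the values. Of 1917 genes without a symbol, 980 were named by gene number from RefSeq GRCm38.p6.

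Limma with an intensity trend (R 4.3.3, limma 3.58.1; group as the only term, Benjamini-Hochberg over all genes, two-sided) was fitted to the log2 values. Tests were run on simulated data first. Alternatives covered normalization, pseudocount, a filter on low values, the spread model, array weights, limma-voom on the recovered reads, a replicate block, depth and leaving out each library. Exon lengths are the merged exons of GENCODE M21. Intervals are exact and, like the limits of 3 reads, cover counting error only, since the labels name no molecular identifiers. The 8 genes and all lists (chemokines, receptors, cytokines, NF-κB genes, dissociation response genes, cell type markers) were chosen with earlier results of these data known. From each list up to 4 genes past the threshold, or otherwise the 2 with the smallest p, are named, except that 1 lymphocyte marker is not reported here. The genes noted as having 0 reads were named after their values were seen.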

Additional observations from a re-analysis of the deposited data

How the results depend on the processing

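All 130 member differences recomputed under the alternatives were below 0. The genes were chosen by this contrast in these same libraries, so the shared sign is a description and not support. Of the 130, 7 moved by more than the spread between replicates. With a pseudocount of 16 these were Ccl3 (-2.20), Ccl4 (-1.65), Ccl2 (-0.76) and Il1a (-0.87). With a pseudocount of 1 they were Ccl2 (-2.47) and Il1a (-3.13), and with vehicle library 3 alone Tnf (-0.42). The number of genes changed over the whole table, 216 (127 lower, 89 higher), was 65 with quantile normalization (53 lower, 12 higher), 499 with library median centring (164 lower, 335 higher), which moved the median difference from 0.03 to 0.25, 129 with a pseudocount of 1, 49 among the 6731 genes averaging 50 or more normalized counts, 21 without the intensity trend, 334 with array weights and 22 with limma-voom on the recovered reads (3 lower, 19 higher). It was 0 with vehicle library 2 or, chosen after seeing the data, vehicle library 3 as the only vehicle library, where the lone animal is assumed to vary like the others and 1589 and 2059 genes lay under an unadjusted p of 0.05 (limma). It ranged from 0 to 56 when each library was left out, 56 without vehicle library 1, 4 without vehicle library 3 and 0 without each of the other 4, where 2270 to 3385 genes lay under an unadjusted p of 0.05. The number of pathway genes changed, 6, was 3 with quantile normalization, 1 among the 41 of them averaging 50 or more, 2 without the intensity trend, 1 with limma-voom, 0 with a single vehicle library and 0 to 1 when each library was left out. The cause of these moves was not tested, and the filter left 2 of the 8 members. With the replicate number as a block, 627 genes (342 lower, 285 higher) and 13 pathway genes passed, and Nfkbiz passed besides Ccl3 and Ccl4. The numbers were not read as pairing the animals. Same-numbered libraries had deviations correlated at -0.27, -0.07 and -0.30. These are deviations from means of 3 libraries that differ in depth, so they cannot settle whether the numbers pair animals. Depth limits the values: 6 of the 8 genes had fewer than 10 reads over the Nrg-1β1 libraries, as did 45.0% of all genes.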
